A study of Mus musculus with 8 samples.

Results

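A group of 6 small RNAs that end without a poly(A) tail was followed through 8 total RNA libraries of mouse embryonic stem cells (ESCs): Rn7sk, Rpph1, Rmrp, Rny1, Rny3 and Terc. These 6 members were taken by symbol from the 55401 genes that each library lists, where they fill 7 rows because Rmrp has 2 gene identifiers. Reads fell on 4 members in every library, while Rmrp and Terc were listed at or near 0 throughout.

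The study concerned coactivator complexes, and these libraries belong to its depletion of ZZZ3 and YEATS2, subunits of the ATAC histone acetyltransferase complex. There were 2 Control libraries, 3 named Zzz3_auxin and 3 named Yeats2_auxin. The cells of the auxin groups carried Zzz3-AID or Yeats2-AID, in which an auxin-inducible degron leads to destruction of the tagged protein once auxin is present, and they received auxin at 500 µM for 24 h. All cells were grown on gelatin in serum with LIF and 2i, and in 400 µg/ml G418, which keeps cells that carry Tir1, the receptor that auxin acts through. The labels state neither the line nor the treatment of the Control cells, so an effect of auxin or of the line and an effect of the depletion cannot be told apart in a comparison with Control. The number of clones per line was also not stated. By the labels, libraries were made from 200 ng of total RNA depleted of ribosomal RNA with random priming, although they give poly(A) RNA as the molecule. The paper's methods for total RNA-seq instead give 500 ng and riboPOOL depletion. Which account holds for these libraries could not be settled. No label says that replicates came from separate cultures, so the P values measure the spread between these libraries only.

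The members are made by RNA polymerase III from promoters that lie upstream of the gene, except Terc, which RNA polymerase II transcribes. Rn7sk encodes 7SK RNA, the scaffold that holds the elongation kinase P-TEFb inactive. Rpph1 and Rmrp encode the RNA subunits of the ribonucleases P and MRP, which process tRNA and rRNA precursors. Rny1 and Rny3 encode Y RNAs, bound by the Ro60 and La proteins, and Terc encodes the template RNA of telomerase. None of them carries a poly(A) tail, so the level of such an RNA and its recovery in a library cannot be told apart by these reads.

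The RNAs are shown as DNA letters read 5′ to 3′ from GENCODE transcripts on GRCm38, because their ends and overlaps decide what could be counted. The full Y RNAs, at chr6:47788069-47788180 on the minus strand and chr6:47781624-47781725 on the plus strand, close with the T run at which RNA polymerase III stops, here in capitals.
Rny1: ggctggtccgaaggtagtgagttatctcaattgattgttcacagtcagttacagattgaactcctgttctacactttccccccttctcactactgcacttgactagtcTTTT
Rny3: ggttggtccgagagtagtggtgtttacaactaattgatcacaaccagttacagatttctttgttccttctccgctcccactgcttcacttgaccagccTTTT
The pair shared 81 of 112 aligned positions, an identity of 72.3%. Rn7sk, at chr9:78175303-78175633 on the minus strand, also ended in TTT, as did 3.06% of 141767 annotated transcripts. Its first 120 bases hold 3 GATC, capitalised below. HEXIM proteins bind GATC repeats in the 5′ hairpin of 7SK RNA, and which of the 3 lie in that hairpin was not examined. At least 3 GATC, searched on the RNA strand only, occurred in the first 120 bases of 0.521% of 137364 transcripts of that length or longer.
Rn7sk, bases 1 to 120: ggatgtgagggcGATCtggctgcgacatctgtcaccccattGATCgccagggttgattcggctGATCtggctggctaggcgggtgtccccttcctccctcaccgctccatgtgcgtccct

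Both ribonuclease RNAs share bases with a further gene model on the same strand, which bears on every value of theirs below. Rpph1 spans chr14:50807449-50807767 on the minus strand, and 233 of its 319 bases (73.0%) fall in an exon of Ccnb1ip1 on the same strand. The bases outside that exon are in capitals.
Rpph1, bases 1 to 80: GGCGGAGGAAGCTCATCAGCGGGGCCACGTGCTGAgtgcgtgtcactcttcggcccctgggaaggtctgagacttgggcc
Rpph1, bases 220 to 319: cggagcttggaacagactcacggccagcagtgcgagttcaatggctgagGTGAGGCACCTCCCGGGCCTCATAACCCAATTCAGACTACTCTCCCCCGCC
Rmrp spans chr4:43492783-43493063 on the minus strand. Its ribozyme model of 271 bases lies wholly inside its second model of 281 bases, which adds only the bases in capitals.
Rmrp: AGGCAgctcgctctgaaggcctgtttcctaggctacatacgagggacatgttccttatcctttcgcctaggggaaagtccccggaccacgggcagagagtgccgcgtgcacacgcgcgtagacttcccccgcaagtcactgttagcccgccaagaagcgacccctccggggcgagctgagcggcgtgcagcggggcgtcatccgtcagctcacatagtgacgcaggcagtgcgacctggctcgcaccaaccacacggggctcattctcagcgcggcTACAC
In Terc, at chr3:96414437-96414859 on the minus strand, the telomeric template begins at base 29 and is in capitals. CTAACCCT occurred in the first 120 bases of 0.13% of the same transcripts.
Terc, bases 1 to 120: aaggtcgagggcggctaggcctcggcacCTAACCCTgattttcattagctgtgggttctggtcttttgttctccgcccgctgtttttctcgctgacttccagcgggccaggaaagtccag

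**Figure D1:**
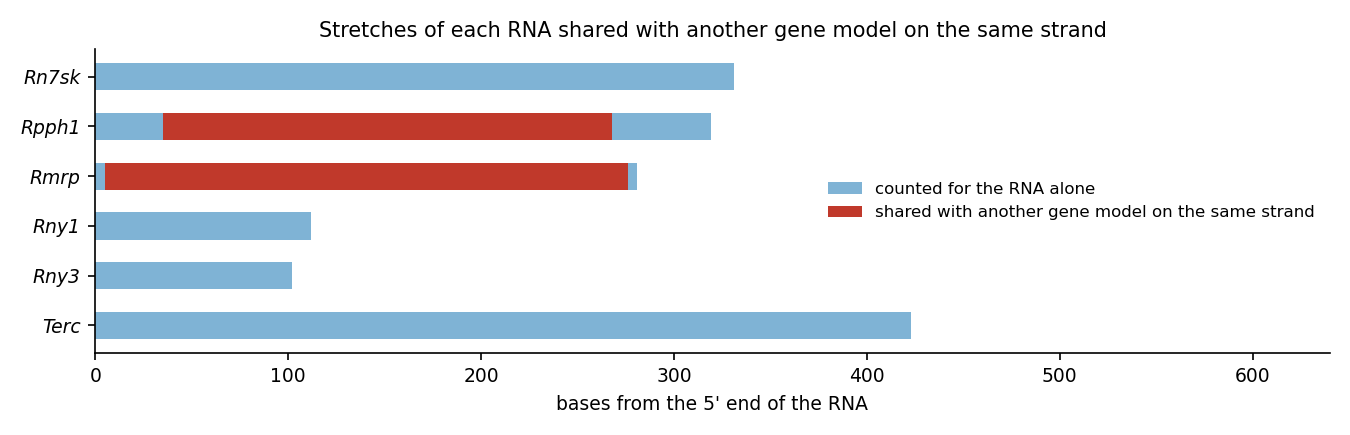
Length of each RNA in bases from its 5′ end, with the stretch that another gene model covers on the same strand in red. In Rpph1 this stretch holds 233 of 319 bases and in Rmrp 271 of 281, while Rn7sk, Rny1, Rny3 and Terc share none.

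Rmrp received 1 read over all 8 libraries, in Control replicate 2, and Terc received none. The authors counted in union mode, which leaves a read unassigned when it touches 2 genes. If their gene models are as here, a read inside the 271 shared bases of Rmrp cannot be assigned to either of its rows. In that case the values of Rmrp say nothing about its level, and they were not read as one. Terc overlaps no other model in the annotation used here, which is older than that of the authors, and 260 of the listed genes have no position in it. Over 189887091 assigned reads a count of 0 allows Terc up to 0.0158 CPM, the count scaled to library size, taking 3 counts as the limit, and 0.108 to 0.21 CPM in a single library. Why Terc was listed at 0 was not tested.

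Genes inside a gene on the opposite strand kept their reads, so the counting used strand. Of 598 single-exon genes wholly inside an exon of another gene on the same strand, 1 had a read (0.167%), against 125 of 322 (38.8%) of those inside an exon on the opposite strand only and 8791 of 19864 (44.3%) of those with no overlap. No annotated relative of a member reached 95% identity: the closest annotated relative of Rn7sk was 89.2% identical, that of Rny1 92.7%, that of Rny3 75.8% and that of Rpph1, the gene Rprl3, 86.0%. Reads assigned to relatives covering at least 80% of the length numbered 68 for Rn7sk, 72 for Rny1, 0 for Rny3 and 197 for Rpph1 over the 8 libraries. The comparison was with annotated transcripts, not with the whole genome.

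Between 14315120 and 27884704 reads were assigned to genes per library. The tally of alignments that were not unique made up 45.6% to 51.7% of all tallied, which was not read as a share of reads. All 8 ESC markers were present, with summed levels of 4570 to 5319 CPM, and 5 of 6 fibroblast markers, 3 of 4 primitive endoderm markers and 1 of 3 trophoblast markers stayed under 1 CPM in every library. Single ESC markers moved in opposite directions under this sum. Pou5f1 was at 275 to 420 CPM in Control, 463 to 584 CPM in Zzz3_auxin and 460 to 592 CPM in Yeats2_auxin. Nanog was at 736 to 772, 581 to 684 and 561 to 662 CPM in the same order. Tdgf1 also lay below Control in both auxin groups. The trophoblast markers summed to 6.19 to 14.2 CPM over all libraries, and their groups overlapped. None of the 3 neuroectoderm markers stayed under 1 CPM throughout, and their sum moved with the groups, at 40.7 to 42.9 CPM in Control, 48.4 to 71.6 CPM in Zzz3_auxin and 44.8 to 50.2 CPM in Yeats2_auxin. Most of it was Nes, at 35.9 to 36.3 CPM, 42.7 to 68.03 CPM and 41.7 to 47.9 CPM, while Sox1 was at 4.49 to 5.77 CPM in Control and 0.767 to 4.68 CPM in the auxin libraries. The part of these markers in the results below was not tested. In GC content, 2 libraries stood apart. The 1751 genes of highest GC content had a median log2 level of -0.44 relative to the mean of all libraries in Control replicate 1 and of 0.44 in Zzz3_auxin replicate 3, against -0.06 to 0.14 in the others. Zzz3 mRNA was at 182 to 186 CPM in Control and at 77.5 to 112 CPM in Zzz3_auxin, and Yeats2 mRNA at 90.9 to 95.8 CPM in Control and at 43.7 to 103 CPM in Yeats2_auxin. The degron acts on protein, so these mRNA levels do not show the depletion itself.

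7SK RNA was the gene with the highest mean CPM of all. Rn7sk had 160448 and 360658 reads in Control, 287173, 317103 and 448826 in Zzz3_auxin, and 320134, 578495 and 265641 in Yeats2_auxin. It made up 0.773% of the assigned reads in Control replicate 1 (Wilson 95% interval 0.769% to 0.777%) and 3.14% in Zzz3_auxin replicate 3 (3.13% to 3.14%). The intervals cover counting error only. After TMM scaling of the library sizes, which all CPM except the limits for Terc use, Rn7sk was at 7916 and 16359 in Control, 11019, 11621 and 30038 in Zzz3_auxin and 12384, 20931 and 10511 in Yeats2_auxin. The libraries of the 3 groups overlapped, and the highest library of a group lay 1.99- to 2.73-fold above its lowest.

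Rpph1 was the member that varied most. It had 1329 and 9990 reads in Control, 7415, 5245 and 14277 in Zzz3_auxin and 3637, 9955 and 3407 in Yeats2_auxin. Its levels were 65.6 and 453 CPM in Control, 285, 192 and 956 CPM in Zzz3_auxin, and 141, 360 and 135 CPM in Yeats2_auxin. The Control libraries thus differed 6.91-fold from each other, and all 8 libraries 14.6-fold. If the models of the authors' annotation are as here, these values cover only reads placed wholly outside the Ccnb1ip1 exon and stand below the full level of the RNA. The stretches outside that exon hold only 35 and 51 bases, and where the counted reads lie is not recorded. Ccnb1ip1 itself, which encodes a meiotic crossover factor, received 867 to 1658 reads per library, fewer than Rpph1 in all but Control replicate 1.

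The Y RNAs were low but formed another pattern. Rny1 had 55 and 81 reads in Control, 184, 170 and 85 in Zzz3_auxin and 87, 186 and 94 in Yeats2_auxin, which made 2.71 and 3.67 CPM, then 7.06, 6.23 and 5.69 CPM, then 3.37, 6.73 and 3.72 CPM. Rny3 had 73 and 87 reads in Control, 228, 189 and 100 in Zzz3_auxin and 109, 183 and 129 in Yeats2_auxin, at 3.60 and 3.95 CPM, 8.75, 6.93 and 6.69 CPM, and 4.22, 6.62 and 5.10 CPM. For both Y RNAs every Zzz3_auxin library lay above both Control libraries. In Yeats2_auxin, Rny3 also lay above Control in every library, while Rny1 overlapped with it.

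**Figure D2:**
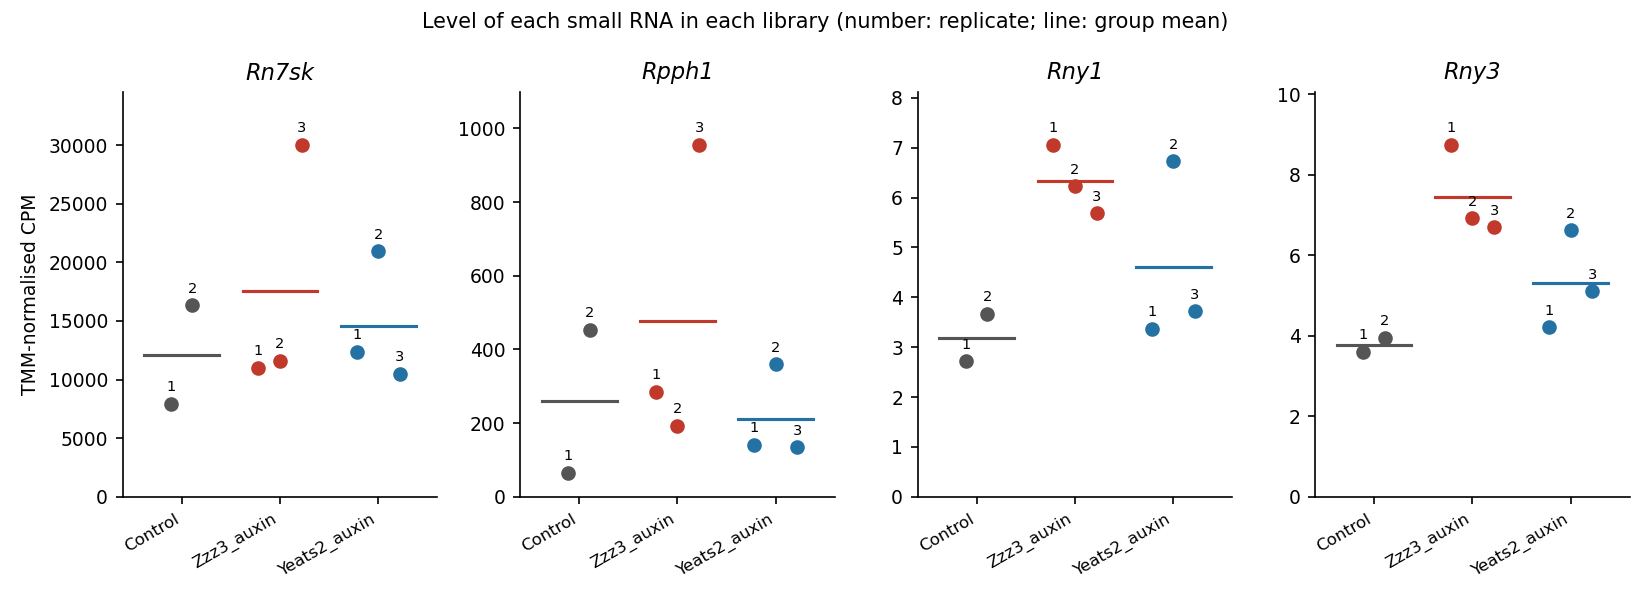
TMM-normalised CPM (linear axis from 0) of the 4 members with reads, by group, with each library as a numbered point and the group mean as a line. Rn7sk and Rpph1 peak in Zzz3_auxin replicate 3, at 30038 and 956 CPM, whereas Rny1 and Rny3 peak in Zzz3_auxin replicate 1, at 7.06 and 8.75 CPM.

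Per kilobase of RNA, the order of levels was the same in every library: Rn7sk, Rpph1, Rny3, Rny1. In Control the means were 36669 ± 18035 CPM per kb for Rn7sk, 813 ± 859 for Rpph1, 37.0 ± 2.39 for Rny3 and 28.5 ± 6.06 for Rny1 (SD, n = 2). Rn7sk exceeded Rpph1 by 30.3- to 116-fold across libraries, with Rpph1 understated if the authors' gene models are as here. The neighbours Rny3 and Rny1 differed by only 1.08- to 1.51-fold, in the same direction in all 8 libraries after division by length. Before that division the order was not constant. In Yeats2_auxin replicate 2, Rny1 had 186 reads and Rny3 183. The counting error of both RNAs, 6.62% to 13.5% per library, is of the order of the gap per kilobase.

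The spread of Rn7sk and Rpph1 between replicates far exceeded counting error. The biological coefficient of variation, edgeR's estimate of the relative spread between replicates beyond counting, was 37.5% for Rn7sk and 72.7% for Rpph1, against a median of 16.3% over all genes tested. Among the 200 genes nearest to each in level, all 200 had a smaller value. Because Rn7sk had the highest mean CPM of all genes, its 200 were all less abundant than it and are no match in level. Rny1 at 22.4% and Rny3 at 17.7% were closer to the genes of their level, with medians of 17.9% and 17.6%. Counting error was 0.131% to 0.25% for Rn7sk and 0.837% to 2.74% for Rpph1. In bulk RNA, fewer cells that hold an RNA and less of it per cell cannot be told apart.

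The members followed each other in 2 pairs over the libraries. On log2 CPM, Pearson r was 0.92 and Spearman rho 0.88 between Rn7sk and Rpph1 (adjusted P = 0.00528 and 0.0217, exact permutation tests, two-sided, over 6 pairs, n = 8). Between Rny1 and Rny3, r was 0.96 and rho 0.90 (adjusted P = 0.00528 and 0.0217, exact permutation). Without the 2 libraries farthest from the median, r remained 0.88 and 0.93, and with the group means removed it was 0.94 and 0.90. Across these pairs, r was 0.33 to 0.60, with adjusted P of 0.23 to 0.427 for r and 0.486 to 0.619 for rho (exact permutation). Leaving out the 2 farthest libraries brought r across the pairs to between 0.01 and 0.36. Reads of Rn7sk per read of Rpph1 ranged from 31.4 to 121, and reads of Rny3 per read of Rny1 from 0.984 to 1.37. Here and below, the permutations moved libraries across groups, so differences between groups enter the P values of these relations. The relations were chosen after seeing the data, and those with the group means removed were not tested.

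Other RNA classes that lack a poly(A) tail were summed to see which of them followed the members. Replication-dependent histone genes, whose mRNAs end in a stem-loop, followed Rn7sk closely: 67 genes summed to 1687 and 3070 CPM in Control, 2289, 2128 and 4267 CPM in Zzz3_auxin and 2331, 3207 and 2105 CPM in Yeats2_auxin. For Rn7sk against this sum, r was 0.99 and rho 0.98 (adjusted P = 0.00198 and 0.00635, exact permutation, over 16 relations of 4 members with 4 classes, n = 8). For Rpph1, r was 0.95 and rho 0.90 (adjusted P = 0.00655 and 0.0365, exact permutation). Without the 2 farthest libraries r was 0.98 and 0.83, and it was 0.99 and 0.98 after the group means were removed. Such closeness was not particular to RNAs without a poly(A) tail. Among 10425 genes searched, the protein-coding gene Rpp25l reached r of 0.99 with Rn7sk, and Cdca4 0.99 with Rpph1. No other of the 16 relations reached an adjusted P under 0.05 for r, their values ranging from 0.167 to 0.802 (exact permutation).

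For the guide RNAs of nucleolus and Cajal bodies, no relation with a member passed the adjustment. Summed snoRNA was at 920 and 1051 CPM in Control, 433, 744 and 689 CPM in Zzz3_auxin and 808, 966 and 712 CPM in Yeats2_auxin. Summed scaRNA was at 727 and 699 CPM in Control, at 332, 527 and 367 CPM in Zzz3_auxin and at 489, 674 and 468 CPM in Yeats2_auxin, and summed snRNA ranged from 87.0 to 177 CPM over all libraries. Zzz3_auxin replicate 1, where both Y RNAs peaked, was the lowest of all for snoRNA, scaRNA and snRNA. Rny3 against snoRNA gave r of -0.72 (adjusted P = 0.167) and rho of -0.71 (adjusted P = 0.23, exact permutation), and r was -0.44 without the 2 farthest libraries and -0.17 with the group means removed. Rn7sk against snoRNA gave r of 0.14 (adjusted P = 0.786, exact permutation), and 0.58 with the group means removed. No single order of the 8 libraries held for all these classes.

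**Figure D3:**
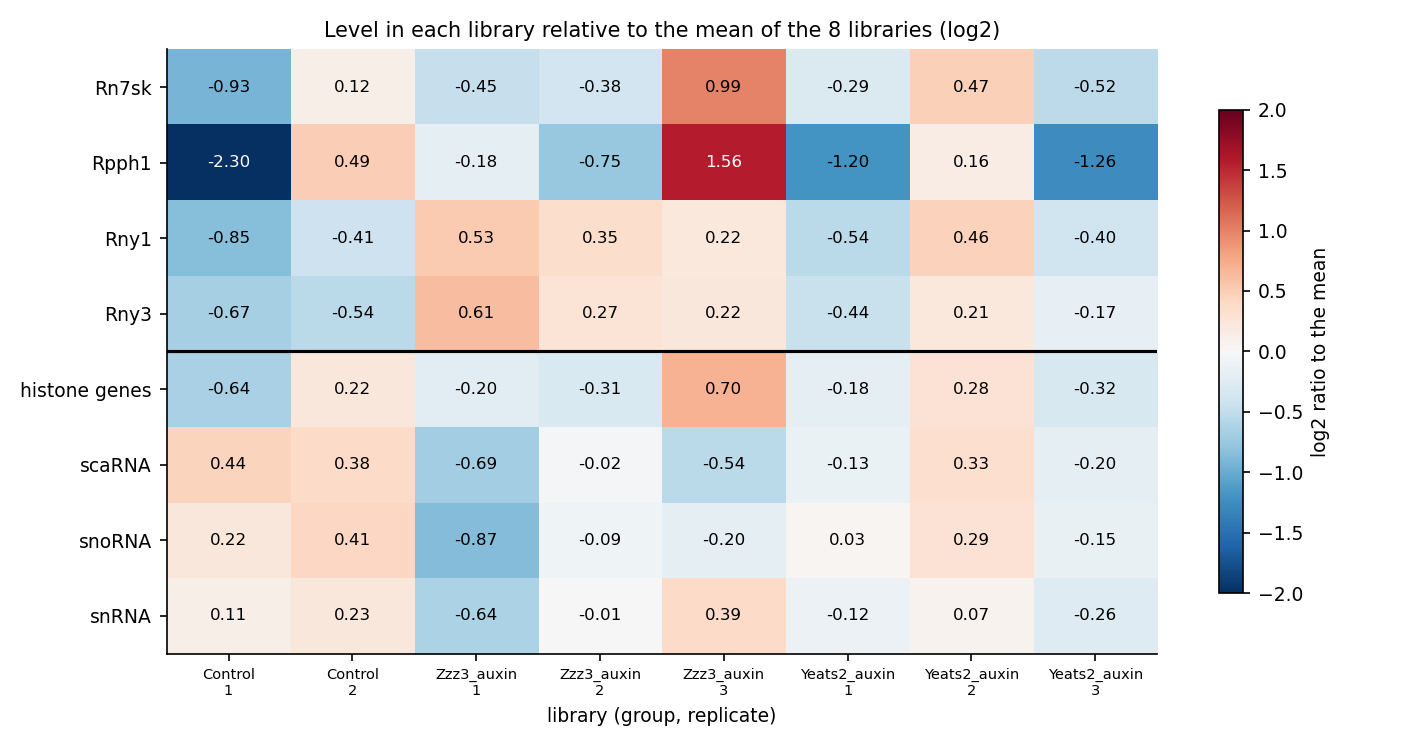
Level of the 4 members (above the line) and of summed histone, scaRNA, snoRNA and snRNA genes in each library, as log2 of the ratio to the mean of the 8 libraries, in colour and digits. Histone genes follow Rn7sk and Rpph1, from -0.64 in Control replicate 1 to 0.70 in Zzz3_auxin replicate 3, while snoRNA is lowest in Zzz3_auxin replicate 1, at -0.87.

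GC content moved with these levels. Rn7sk holds 58.0% GC and Rpph1 67.1%, both above the 57.4% at which those 1751 genes begin, and the median histone gene had 57.9%. Rny1 and Rny3 hold 43.8% and 45.1%. The gap in median between the 1751 genes of highest and the 1751 of lowest GC content, taken per library, gave r of 0.80 with Rn7sk, 0.84 with Rpph1, 0.72 with Rny1 and 0.70 with Rny3 (adjusted P = 0.0266, 0.0266, 0.0266 and 0.0381, exact permutation over 4 relations, n = 8). Spearman rho was 0.60, 0.60, 0.69 and 0.76, with an adjusted P of 0.132 for each (exact permutation). With the 2 farthest libraries left out, r fell to 0.61, 0.25, 0.50 and 0.55, so the relation of Rpph1 rested on Control replicate 1 and Zzz3_auxin replicate 3. With the group means removed, r was 0.90 for Rn7sk, 0.98 for Rpph1, 0.38 for Rny1 and 0.19 for Rny3. The share of reads that touched several genes was also highest in Zzz3_auxin replicate 3, at 2.87% of the assigned reads, and lowest in Control replicate 1, at 1.54%. The part of GC content in the levels of the members was not tested.

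After ZZZ3 depletion the Y RNAs stood 1.98-fold above their Control level without passing the test across all genes. Rny3 averaged 7.46 ± 1.13 CPM in Zzz3_auxin (SD, n = 3) and 3.77 ± 0.244 CPM in Control (SD, n = 2), a log2 fold change (FC) of 0.98 with an SE of 0.24 (edgeR quasi-likelihood test, adjusted P = 0.0746). Rny1 averaged 6.33 ± 0.691 CPM against 3.19 ± 0.679 CPM, or 0.99 ± 0.31 (SE) as log2 FC (edgeR, adjusted P = 0.114). Of the 4 members tested, 0 were called at an adjusted P under 0.05, as against 132 of 17532 genes (0.753%), and 2 had an unadjusted P under 0.05. Groups did not overlap, with Zzz3_auxin higher, for 2 of the 4 members and for 16.8% of all genes tested.

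The call for the Y RNAs depended on the method. DESeq2, which the authors used, called both, with an adjusted P of 0.0102 for Rny3 and 0.0394 for Rny1 at a log2 FC of 0.98 and 0.99. For its differentially expressed genes the paper also required a log2 FC beyond 1, which neither Y RNA reached under DESeq2. It called 1080 of 13877 genes (7.78%) in all. Without a filter on low counts edgeR also called both (adjusted P = 0.00576 and 0.00912), beside 4.67% of all genes. With GC content and length corrected, the log2 FC was 1.47 for Rny3 and 1.48 for Rny1 (edgeR, adjusted P = 0.0271 and 0.039), beside 1.01% of all genes.

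Rn7sk and Rpph1 did not differ between Zzz3_auxin and Control beyond the spread of the libraries. Rn7sk averaged 17560 ± 10811 CPM in Zzz3_auxin and 12138 ± 5970 CPM in Control, which makes the log2 FC 0.53 with an SE of 0.51 (edgeR, adjusted P = 0.578). Rpph1 averaged 477 ± 417 CPM against 259 ± 274 CPM, or 0.88 ± 1.04 (SE) as log2 FC (edgeR, adjusted P = 0.675). With errors of this size, large changes would have gone undetected. Both values turned below 0 without Zzz3_auxin replicate 3, at -0.09 for Rn7sk and -0.11 for Rpph1, and with Control replicate 1 left out as well they were -0.52 and -0.92. With GC content and length corrected they were 0.33 and 0.39.

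After YEATS2 depletion, 0 of the 4 members were called, against 78 of 17532 genes (0.445%) in the edgeR test, and 0 had an unadjusted P under 0.05. DESeq2 called 0 of them too, against 2.75% of all genes. The log2 FC was 0.49 for Rny3 (SE 0.24, edgeR adjusted P = 0.364) and 0.53 for Rny1 (SE 0.31, edgeR adjusted P = 0.447), from means of 5.31 ± 1.22 and 4.60 ± 1.85 CPM. Both Y RNA values lay above 0, at a smaller size than in Zzz3_auxin. Both comparisons share the Control libraries. The log2 FC of Rn7sk was 0.27 (SE 0.50, edgeR adjusted P = 0.837) and that of Rpph1 -0.29 (SE 1.01, edgeR adjusted P = 0.921). For Rny3 the groups did not overlap, which held in the higher direction for 19.3% of all genes. Leaving out Control replicate 2, which had the higher Rpph1 level of both Control libraries, turned the log2 FC of Rpph1 to 1.70.

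The direct comparison of both depletions found no difference among the members that passed the test. The log2 FC of Yeats2_auxin over Zzz3_auxin was -0.49 for Rny3 (SE 0.20, edgeR adjusted P = 0.779) and -0.46 for Rny1 (SE 0.26, edgeR adjusted P = 0.779). It was -0.27 for Rn7sk (SE 0.45, edgeR adjusted P = 0.902) and -1.17 for Rpph1 (SE 0.92, edgeR adjusted P = 0.807). Without Zzz3_auxin replicate 3 the value of Rpph1 was -0.16, and with any other library left out it lay between -1.79 and -0.93. edgeR called 0 of 17532 genes (0%), with 1095 at an unadjusted P under 0.05, among them Rny3 as 1 of the 4 members, and DESeq2 called 3 genes (0.00909%), of which 0 were members. Yeats2_auxin lay wholly below Zzz3_auxin for Rny3 and for 5.82% of all genes.

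**Figure D4:**
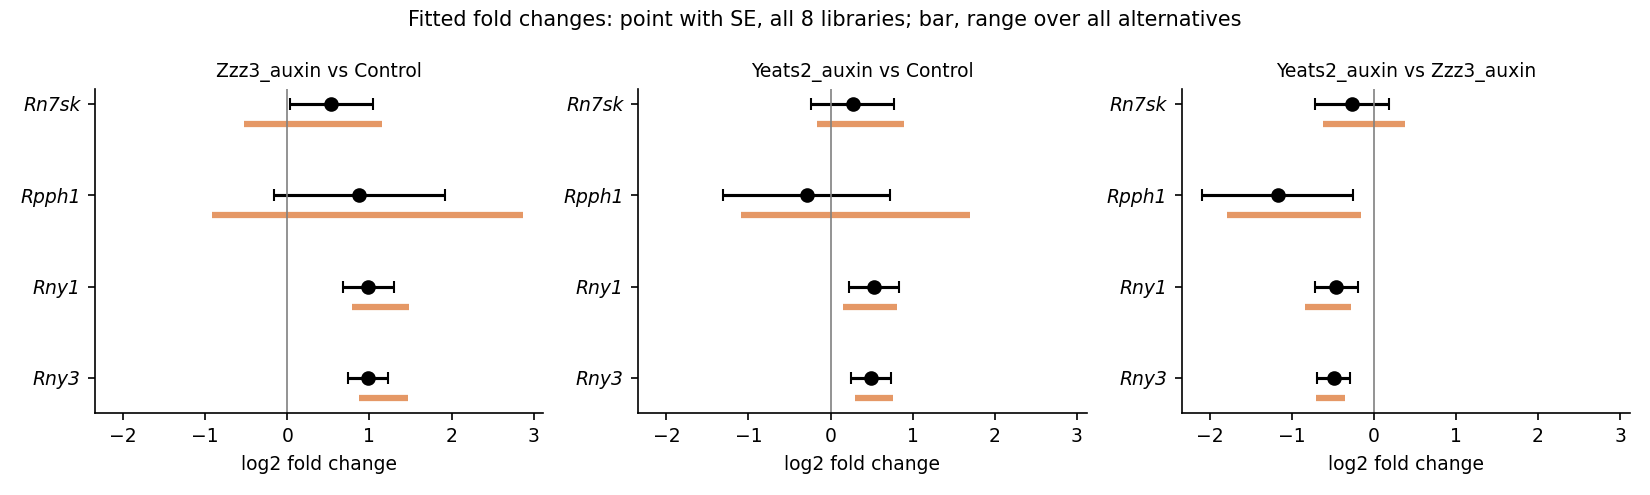
Log2 FC of each member in the 3 comparisons, with the SE of the edgeR fit to all 8 libraries as whiskers, and below each point a bar for the range over all alternative analyses. The bars of Rny1 and Rny3 stay above 0 in both comparisons with Control, whereas those of Rn7sk reach across 0 in all 3.

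Summed over the 6 members, the level was 7988 and 16820 CPM in Control, 11319, 11827 and 31006 CPM in Zzz3_auxin and 12532, 21304 and 10655 CPM in Yeats2_auxin. Rn7sk made up 96.9% to 99.1% of this sum, which therefore repeats its pattern. The log2 ratio of group means was 0.54 for Zzz3_auxin and 0.26 for Yeats2_auxin over Control, both within the spread of the libraries, whose larger SD was 0.82 and 0.76 on the log2 scale.

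The proteins that work with these RNAs gave no called gene in either comparison with Control. Of 54 tested genes in 5 protein lists, edgeR called 0 after either depletion. At an unadjusted P under 0.05 there were 14 (25.9%, against 21.7% of all genes) in Zzz3_auxin and 7 (13.0%, against 14.6%) in Yeats2_auxin. DESeq2 called 6 and 2 of them, beside 7.78% and 2.75% of all genes.

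None of the 6 proteins that bind Y RNAs or other RNA polymerase III transcripts passed the test, and 4 had an unadjusted P under 0.05 in Zzz3_auxin and 2 in Yeats2_auxin. Trove2, which encodes Ro60, was at 112 to 130 CPM in Control and 89.2 to 100 CPM in Zzz3_auxin, a difference of -0.37 ± 0.12 (SE) in log2 FC (edgeR, adjusted P = 0.114). Ssb, which encodes La, was at 554 to 601 CPM and at 367 to 453 CPM, a difference of -0.44 ± 0.13 (SE) in log2 FC (edgeR, adjusted P = 0.0921). Ptbp1 and Puf60, which encode splicing regulators, lay the other way, with a log2 FC of 0.62 (SE 0.23) and 0.37 (SE 0.16) in Zzz3_auxin (edgeR adjusted P = 0.157 and 0.202). In Yeats2_auxin the log2 FC was -0.35 for Trove2 and -0.33 for Ssb (edgeR adjusted P = 0.201 and 0.259). Ncl, the nucleolin gene and the list's most abundant member, had a log2 FC of -0.35 and 0.24 (edgeR adjusted P = 0.641 and 0.815). The 6 genes of this list had a median log2 FC of -0.22 in Zzz3_auxin and 0.06 in Yeats2_auxin, beside 0.01 and -0.01 over all genes tested.

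The other protein lists held no called gene either. The 11 RNase P and MRP proteins had a median log2 FC of 0.02 and 0.04 in the respective depletions, and Pop1, their most abundant member and a shared scaffold, 0.16 and 0.17 (edgeR adjusted P = 0.557 and 0.624). The 7 genes of the 7SK particle and its kinase had medians of 0.15 and 0.16, and Ccnt2, a cyclin of P-TEFb, -0.31 and -0.15 (edgeR adjusted P = 0.228 and 0.663). Ccnt1, a further cyclin of P-TEFb, had -0.41 (SE 0.12) and -0.32 (SE 0.12), with an edgeR adjusted P of 0.0991 and 0.246. In each comparison, 5 of the 7 lay above 0. The 20 genes of RNA polymerase III and its upstream promoter factors had medians of -0.02 and 0.02, and Bdp1, a subunit of its initiation factor, -0.03 and 0.04 (edgeR adjusted P = 0.916 and 0.914). Snapc1, of the promoter factors, had -0.53 (SE 0.15) and -0.39 (SE 0.15), with an edgeR adjusted P of 0.0974 and 0.27. Of the 20, 9 and 11 lay above 0.

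Telomerase genes could be read although Terc could not. Dkc1, which encodes dyskerin and was the most abundant of 10, had a log2 FC of -0.31 and -0.18 (edgeR adjusted P = 0.209 and 0.563). Tert, the catalytic subunit that Terc serves, was at 22.8 and 23.7 CPM in Control, at 33.4 to 38.9 CPM in Zzz3_auxin and at 31.0 to 37.4 CPM in Yeats2_auxin. Its log2 FC was 0.65 (SE 0.14, edgeR adjusted P = 0.0558) and 0.53 (SE 0.14, edgeR adjusted P = 0.135), without a call. Its libraries lay above Control without overlap in both depletions, as did those of 16.8% and 19.3% of all genes in the respective comparison. Nhp2, which encodes a protein of the same particle as dyskerin, had a log2 FC of 0.71 (SE 0.20) and 0.40 (SE 0.20), with an edgeR adjusted P of 0.0904 and 0.366. Nop10, a further protein of that particle, lay lower, at -0.56 (SE 0.16) and -0.63 (SE 0.16) in log2 FC, with an edgeR adjusted P of 0.0994 and 0.134. The 10 genes had medians of -0.18 and 0.00 in the respective depletions.

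Among other small RNAs without a poly(A) tail, 7 of 31 gene rows could be tested, and 5 of the 7 lay below 0 in each comparison with Control. The 2 above 0 were Rprl3 and Rnu12. Rprl3 had the largest log2 FC of the list, 1.78 and 1.29 (edgeR adjusted P = 0.194 and 0.444), from a Control mean of only 0.377 CPM. Rnu12 had 0.49 and 0.18 (edgeR adjusted P = 0.414 and 0.834). The 7 had median log2 FCs of -0.74 and -0.51. In each comparison edgeR called 0 of them and DESeq2 1, where DESeq2 called 7.78% and 2.75% of all genes. Bc1, a small cytoplasmic RNA polymerase III transcript and the most abundant of them, was at 169 and 244 CPM in Control, 96.04 to 169 CPM in Zzz3_auxin and 100 to 149 CPM in Yeats2_auxin. Its log2 FC was -0.74 (SE 0.26, edgeR adjusted P = 0.14) and -0.65 (SE 0.26, edgeR adjusted P = 0.281). Rnu73b, a snoRNA, had a log2 FC of -1.10 and -1.18 (edgeR adjusted P = 0.0576 and 0.0665). The signal recognition particle RNAs Rn7s1 and Rn7s2, which are 100% identical to each other, received 2 and 1 reads, and the 2 rows of Rprl1 none, so the low rows of this list were not read as levels.

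Genes whose pattern was most like that of a member were sought among the 10425 genes that averaged 5 CPM or more. Rn7sk was nearest to Rpp25l, which encodes a relative of an RNase P protein, followed by Uqcr11 and Tmem208, all with r of 0.99 over the 8 libraries. Rpp25l ranged only from 26.0 to 50.3 CPM, so it followed Rn7sk at a much smaller amplitude. Rpph1 was nearest to Cdca4 (r = 0.99), Dvl1 (r = 0.99) and Nop2 (r = 0.98). Rny1 was nearest to Ctu1 (r = 0.96), Apobec2 (r = 0.95) and Nans (r = 0.94), and Rny3 to Lgmn (r = 0.98) and Bin1 (r = 0.96). These are the highest of many correlations over 8 libraries and are given as a description.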

How the data were processed

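The deposited values were raw read counts per Ensembl gene, 1 file per library, without normalization. By the published methods, the authors trimmed adaptors, removed ribosomal RNA reads, aligned to mm10 and counted uniquely aligned reads in union mode on Ensembl release 102, leaving ambiguous reads unassigned. The submitters' processing notes name STAR 2.5.3a, HTSeq 0.6.1p1, R 3.3.2 and DESeq2 1.16.1. Union counting leaves reads on overlapping gene models out, which would lower Rpph1 and empty Rmrp if the models of release 102 are as here. The strand option was not stated and was read from overlapping genes. The 5 tallies of unassigned reads stayed out of the library sizes.

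Symbols, overlaps and sequences came from GENCODE M21 (Ensembl 96, GRCm38), which matched 55141 of 55401 genes. Relatives were sought with blastn 2.17.0 among annotated transcripts, since no genome sequence was used here. In R 4.3.3, genes passing filterByExpr (17532, with 4 of the 6 members) had TMM factors (trimmed mean of M values) applied and were fitted over all 8 libraries with edgeR 4.0.16 (robust quasi-likelihood test, two-sided, Benjamini-Hochberg adjustment within each comparison, calls at 0.05). Log2 CPM used a prior count of 2. DESeq2 1.42.0, other scalings and filters, only the compared groups, a replicate block, a lowess correction for GC content and length (span 0.3) and left-out libraries were alternatives. Relations across libraries were tested by exact permutation in Python 3.11.15 with numpy 2.4.6 and scipy 1.17.1, and were chosen after seeing the data. Scripts were tested on simulated data. Named genes were the 6 members, the genes called and the most abundant gene of each partner list, and the 3 genes most like each member, of which 1 for Rny3 is not reported here. Ccnt1, Snapc1, Tert, Nhp2, Nop10, Trove2, Ssb, Ptbp1, Puf60, Rnu73b, Rnu12, Rn7s1, Rn7s2, Rprl1 and Rprl3 were named after their values were seen. The members and lists were chosen with earlier results of these data known.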

Additional observations from a re-analysis of the deposited data

Results flagged for a closer look

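The tally of reads that touched several genes, which enters no comparison, was higher in 2 auxin libraries than in both Control libraries. It amounted to 2.87% of the assigned reads in Zzz3_auxin replicate 3 and to 2.10% in Yeats2_auxin replicate 2, against 1.54% and 1.88% in Control. These are also the 2 libraries with the highest Rn7sk level. If the authors' gene models are as here, reads of Rmrp and of the shared stretch of Rpph1 would fall in this tally. Which genes its reads touched is not recorded, and its difference between groups was not tested.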

How the results depend on the processing

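Of 204 alternative values of the members' log2 FCs, 188 kept their direction and side of the threshold, 6 passed the threshold and 10 changed sign. The 6 were Rny1 and Rny3 in Zzz3_auxin under DESeq2, without a filter and with GC content and length corrected, where 2 members were called in place of 0. Over all alternatives their adjusted P ranged from 0.00912 to 0.633 and from 0.00576 to 0.535, at log2 FCs of 0.78 to 1.48 and 0.87 to 1.47. The sign changed for Rn7sk and Rpph1 alone: in Zzz3_auxin without replicate 3 (-0.09 and -0.11) and without it and Control replicate 1 (-0.52 and -0.92), for Rn7sk in Yeats2_auxin without Control replicate 1 (-0.16), without Yeats2_auxin replicate 2 (-0.08) and without the 2 libraries apart in GC content (-0.15), for Rpph1 in Yeats2_auxin without Control replicate 2 (1.70), and for Rn7sk in the direct comparison without Zzz3_auxin replicate 3 (0.37) and without both libraries (0.38). With 1 library left out, the log2 FC of Rn7sk ranged from -0.089 to 1.16 in Zzz3_auxin, -0.16 to 0.89 in Yeats2_auxin and -0.62 to 0.37 in the direct comparison, and that of Rpph1 from -0.11 to 2.87 in Zzz3_auxin, -1.10 to 1.70 in Yeats2_auxin and -1.79 to -0.16 in the direct comparison. The summed level of the members gave log2 ratios of -0.10 to 1.18 (Zzz3_auxin over Control), -0.18 to 0.89 (Yeats2_auxin over Control) and -0.64 to 0.36 (direct) with 1 library left out, and -0.54 in Zzz3_auxin without both libraries. In the 6 partner lists together, 5 of proteins and 1 of other small RNAs, the main test called 0 genes. DESeq2 called 7 and 3, beside 7.78% and 2.75% of all genes. Without a filter edgeR called 9 and 3, beside 4.67% of all genes in Zzz3_auxin. On only the compared groups edgeR called 2 in Yeats2_auxin. With 1 library left out the count was 0 to 5 in Zzz3_auxin, the 5 without Zzz3_auxin replicate 2, and 0 to 2 in Yeats2_auxin, with 2 without Zzz3_auxin replicate 1 and 1 without Zzz3_auxin replicate 3. The causes were not tested.

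Deviations of same-numbered libraries from their group means had correlations of -0.17 to 0.20. The deviations of the 2 Control libraries mirror each other by construction, so this cannot settle whether the numbers pair the libraries. With the replicate number as a block, 0 members were called in each comparison, and the log2 FC in Zzz3_auxin was 1.04 for Rny3 (edgeR, adjusted P = 0.116) and 1.12 for Rny1 (edgeR, adjusted P = 0.121). The SE of the log2 FC of Rn7sk and Rpph1 was 0.51 and 1.04 in Zzz3_auxin over Control and 0.45 and 0.92 in the direct comparison. The Y RNAs had 55 to 228 reads per library, and for all 4 members counting error was smaller than the spread between replicates.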
